A study of Mus musculus with 4 samples.

Results

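The Ikaros family comprises 5 zinc-finger transcription factor genes, Ikzf1 (Ikaros), Ikzf2 (Helios), Ikzf3 (Aiolos), Ikzf4 (Eos) and Ikzf5 (Pegasus), and is described here by the open chromatin around each gene. All 5 were found in the RefSeq gene table on mouse build GRCm38.p6, the assembly that mm10 names, among 21883 protein-coding genes. Overlapping peaks of the 4 libraries were joined into regions, and 60 of the 77914 regions of the genome overlapped a member's gene body or the 50 kb on either side. The assay was ATAC-seq, which uses a transposase to tag accessible DNA for sequencing. The cells were MPP3, multipotent bone marrow progenitors with a myeloid bias, from WT-iMOS mice aged 3 months. The series asks what Bcl11a, a zinc-finger repressor, does within these cells. The libraries form the groups T1 and T2, which the labels give as genotypes WTiMOS_T1 and WTiMOS_T2 with 2 libraries each. What these genotypes carry, and whether the libraries came from separate or pooled animals, is not given in the sources used here, so the spread between replicates may be technical. As each library pools many cells, fewer cells with an open region and a less open region in every cell cannot be told apart.

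Ikaros proteins bind DNA through a group of zinc fingers near the N terminus and pair with each other through fingers at the C terminus. They can repress or activate genes and are known to recruit the NuRD, Sin3 and CtBP corepressors. Ikaros is required for lymphoid development and is already active in multipotent progenitors, where it is part of lymphoid priming. Helios is known from stem cells and regulatory T cells, Aiolos from B cell maturation, and Eos from regulatory T cells. Pegasus is the most divergent member.

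RefSeq promoter windows (250 bases before to 50 after a gene start, GRCm38.p6) were listed for 2 of the members, Ikzf1 with 2 starts and Ikzf5 with 1. They are printed because each overlapped a region with a peak in all 4 libraries, and because the windows of the Ikzf1 starts differ greatly in composition. All are written 5′ to 3′ on the gene's strand, and capitals mark GGGCGG or its reverse complement CCGCCC, the GC box.
Ikzf1 first start, chr11:11685675-11685974, plus strand: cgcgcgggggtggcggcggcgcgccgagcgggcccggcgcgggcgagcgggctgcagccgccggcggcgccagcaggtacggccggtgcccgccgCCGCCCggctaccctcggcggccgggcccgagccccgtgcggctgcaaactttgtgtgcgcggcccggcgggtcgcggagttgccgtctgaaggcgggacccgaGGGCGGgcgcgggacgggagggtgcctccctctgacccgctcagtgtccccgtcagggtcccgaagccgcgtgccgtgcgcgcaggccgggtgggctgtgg
Ikzf1 second start, chr11:11689927-11690226, plus strand: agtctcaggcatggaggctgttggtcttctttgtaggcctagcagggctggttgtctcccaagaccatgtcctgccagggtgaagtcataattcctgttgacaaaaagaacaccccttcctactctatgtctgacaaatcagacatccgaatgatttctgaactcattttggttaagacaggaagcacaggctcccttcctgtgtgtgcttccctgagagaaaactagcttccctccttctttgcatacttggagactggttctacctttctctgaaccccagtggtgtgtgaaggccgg
Ikzf5 start, chr7:131410429-131410728, minus strand: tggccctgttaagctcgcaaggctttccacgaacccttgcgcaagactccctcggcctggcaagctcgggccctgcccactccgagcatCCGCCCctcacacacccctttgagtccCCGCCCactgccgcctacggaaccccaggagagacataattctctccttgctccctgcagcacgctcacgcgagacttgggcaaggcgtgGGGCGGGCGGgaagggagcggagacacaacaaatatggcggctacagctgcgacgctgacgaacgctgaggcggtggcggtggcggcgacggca
The first Ikzf1 window had a GC content of 81.3% and 52 CpG dinucleotides, more CpGs than 99.4% of the 32817 windows in the table. The second had 49% GC and 2 CpGs, and the Ikzf5 window 65.7% and 27, beside medians of 52.7% and 7 over the table. Of 7 motifs searched on both strands, the GC box was the only one found, with 2 matches in the first Ikzf1 window and 4 in the Ikzf5 window, 2 of them overlapping. It occurs in 35.6% of all windows. The core bound by Ikaros proteins, TGGGAA, is held by 25.6% of all windows and had no match in these 3. The motif known for BCL11A, spelled TGACCA, is held by 13.6% and likewise had no match. The remaining motifs without a match were those of RUNX factors, which read TGTGGT and occur in 16.8% of windows, and of GATA factors, which read AGATAA and occur in 11.2%. Those of AP-1 and the E-box, spelled TGACTCA and found in 5.2% of windows, and spelled CACGTG and found in 7.15%, had none either. These are letters in a window and not measured binding.

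Across the family, 40 regions had a peak in all 4 libraries, 4 were T2-only (a peak in both T2 libraries and neither T1 library), 0 were T1-only and 16 had another combination. The shares of all regions of the genome in these classes were 56.8%, 6.88%, 2.33% and 34%, so the T2-only share at the family, 6.67%, was near the background. The family's shared fraction was 66.7%. Peaks were present at 46 family regions in each T1 library and at 53 and 51 in the T2 libraries. The groups did not overlap, at 46 ± 0 against 52 ± 1.41 regions (SD, n = 2 per group), but the T2 lists were also longer genome-wide (66764 and 62704 peaks on the main chromosomes, against 58454 and 54045). The exact two-sided permutation test gave p = 0.333, the smallest value that 2 libraries against 2 allow, and no other comparison of the groups was tested. With every list shortened to the length of the shortest the groups overlapped, at 43 and 46 regions in T1 against 45 and 49 in T2 (difference 2.5, exact permutation p = 0.667). In that setting 4 family regions were T2-only, or 7.55% against 4.33% of all regions, and 0 were T1-only, against 4.61%. Without T2 replicate 2 there were 7 T2-only regions, 12.1% of the family's, where the share over all regions rose to 15.7%. When only peaks reaching 10 in −log10 q, the peak caller's significance, were used there were 2, or 4% against 8.08% of all regions. T1-only regions numbered 2 without T1 replicate 1 (3.45% against 4.51% of all regions), 2 without T1 replicate 2 (3.39% against 6.14%) and 1 without T2 replicate 1 (1.75% against 4.7%).

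**Figure D1:**
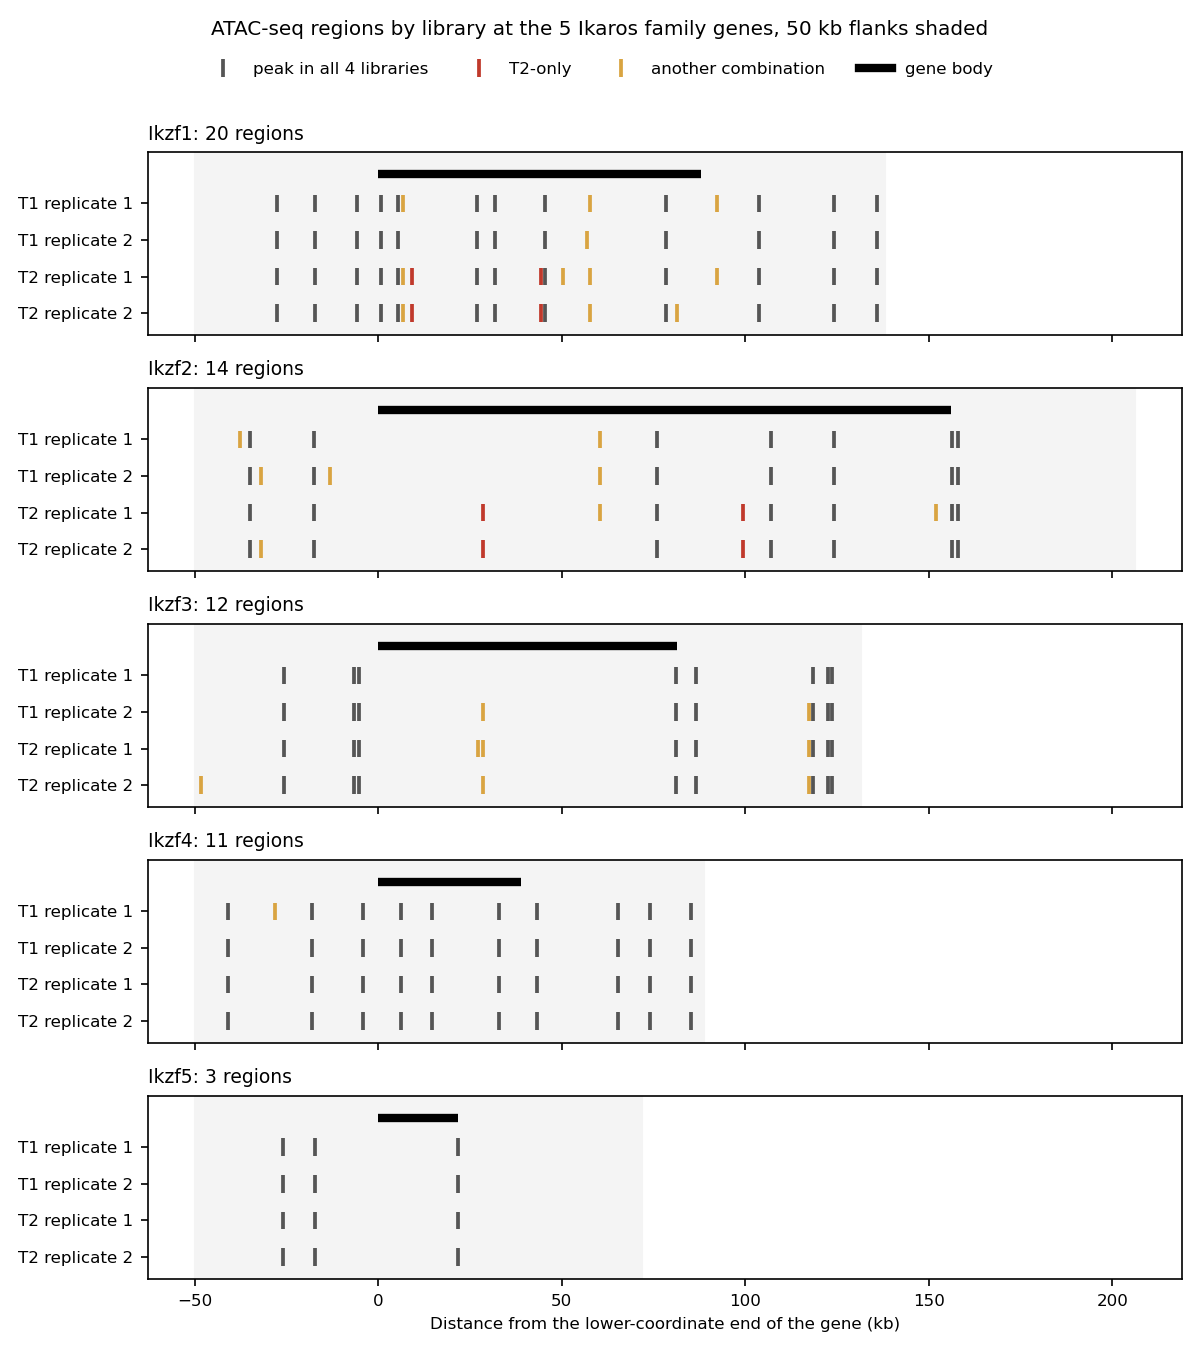
Each tick is a region with a peak in that library, placed by its distance in kb from the lower-coordinate end of the gene (black bar), with a row per library and a panel per gene. The red ticks, for 2 regions at Ikzf1 and 2 at Ikzf2, are the T2-only regions and all lie inside gene bodies. No T2-only share over the genome was taken for regions inside gene bodies.

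For the 44274 regions shared by all 4 libraries, the strength of a region was compared by rank. In each library the shared regions were ordered by the −log10 q that the authors' peak caller gave the strongest peak, and the rank is a percentile with 100 as the strongest. Since the same regions are ranked in every library, list length does not enter. A region is said to rank higher in a group where both of its libraries lay above both of the other group's. By this rule 12 of the 40 shared family regions ranked higher in T1 (30%) and 6 ranked higher in T2 (15%), against 26.2% and 26.3% of all shared regions. The median difference in mean rank, T2 minus T1, was −1.53 percentile points at the family and 0.02 over all shared regions. These counts describe the family and were not tested. The order of the counts turned when percentiles were taken in the whole lists, which differ in length, with 11 higher in T2 (27.5%) and 9 higher in T1 (22.5%). In that setting 40.6% of all shared regions were higher in T2 and 14.2% in T1. With 1 library left out, its partner decides alone and more regions qualify everywhere. Family regions higher in T1 then numbered 19 without T1 replicate 1 and 21 without T1 replicate 2. Those higher in T2 numbered 14 and 12 in the same settings, and 11 without either T2 replicate. The family's shares were then 41.5% to 50% higher in T1 and 26.8% to 33.3% higher in T2, beside 37.1% to 38.1% and 38.0% to 38.5% of all shared regions.

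**Figure D2:**
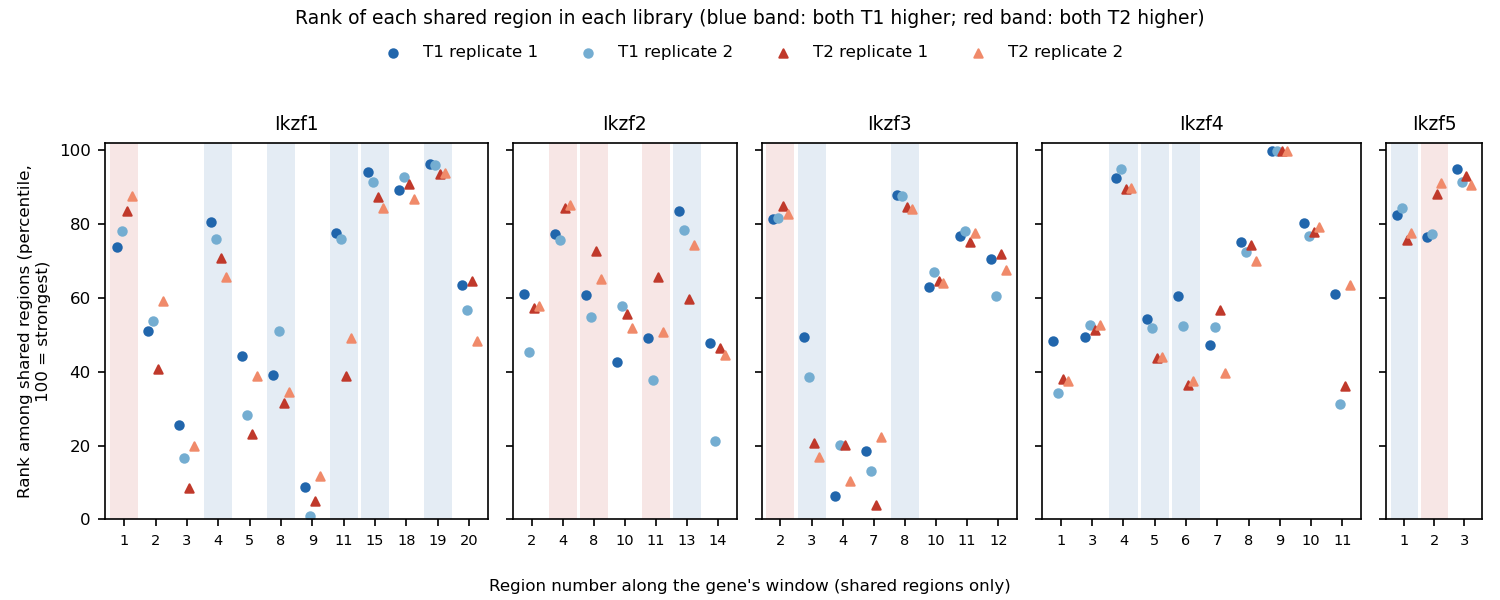
Percentile rank (100 is the strongest) of each of the 40 shared regions in each library, with circles for T1 and triangles for T2, by region number along each gene's window. Blue bands mark the 12 regions ranking higher in both T1 libraries and red bands the 6 ranking higher in both T2 libraries.

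Ikzf1, the founding member, had the richest landscape of the family. Its 88 kb body on chromosome 11 (11684962 to 11772930) and flanks held 20 regions, more than 95.7% of protein-coding genes in the same kind of window, where the median is 7. At 10.6 regions per 100 kb its density exceeded that of 82.7% of genes. Of the 20 regions, 12 were shared (60%), 2 were T2-only (10%) and 6 had another combination (30%). The shares over all regions were 56.8%, 6.88% and 34%, and 10.3% of protein-coding genes had 2 or more T2-only regions. The T1 libraries had a peak at 15 and 13 of the 20 and the T2 libraries at 18 and 17. Replicate 1 comes first here and wherever a pair of values is given. Over all regions of the genome the numbers were 57957 and 53188 in T1 and 66134 and 61672 in T2. Regions are numbered here from the lower coordinate.

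The largest rank difference in the family lay inside Ikzf1, at region 11 (chr11:11730080-11730702), centred 45.4 kb into the gene. Its rank was 77.6 and 76.1 in T1, against 38.8 and 49.2 in T2. Both T2 libraries were thus far below both T1 libraries, with 26.9 percentile points between the nearest values, beside a replicate difference of 1.52 in T1 and 10.4 in T2. A gap at least as large towards T1 was found at 0.861% of all shared regions. The authors' fold over local background was 14.1 and 12.8 in the T1 lists and 6.8 and 9.29 in the T2 lists, and −log10 q was 76.8 and 56.3 against 30.5 and 32.7. The peak was also wider in T1, at 574 and 623 bp against 426 and 314 bp. The mean rank differed by −32.9 points, T2 minus T1. Over the alternatives that difference ran from −43.0, with ranks by fold, to −20.9, with percentiles in the whole lists.

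The nearest neighbour of region 11 was T2-only. Region 10 (chr11:11729102-11729468) ended 611 bp before it and had a peak in T2 alone, with −log10 q of 19.4 and 9.94 and folds of 5.51 and 4.86. Region 7 (chr11:11694110-11694432), centred 9.31 kb into the gene, was the other T2-only region, with −log10 q of 16.4 and 14.4 and folds of 4.53 and 4.79. Both were below the middle of their lists, with region 7 at percentiles 37.0 and 34.9 and region 10 at 42.5 and 22.4. Among regions of such strength in T2 (mean list percentile within 2.5 points), 13.3% and 16.1% were T2-only for regions 7 and 10. Under the stricter minimum of 10, region 7 stayed T2-only and region 10 did not, since its peak in T2 replicate 2 was lost.

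At the first Ikzf1 start, region 4 (chr11:11684872-11686681) spanned 1810 bp and held the GC-rich window printed above. It ranked at 80.5 and 76.0 in T1 and at 70.9 and 65.7 in T2. The groups did not overlap, with a gap of 5.12 points that 12% of shared regions matched or exceeded towards T1. With percentiles in the whole lists they overlapped, at a difference of −4.58 points. The window of a predicted gene, Gm11999, lies in the same region, and ATAC-seq has no strand, so the peak cannot be assigned to Ikzf1 alone. Summits lay 158 to 251 bp downstream of the first start in the 4 libraries. Region 5 (chr11:11689990-11690509), at the second start, was weaker, at 44.4 and 28.3 in T1 and 23.2 and 38.9 in T2, and there the groups overlapped. Its summits lay between 2 bp before and 34 bp after the second start.

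The other non-overlapping Ikzf1 regions changed less. Region 8 (chr11:11711680-11712138) ranked at 39.0 and 51.2 in T1 and 31.5 and 34.4 in T2. Region 15 (chr11:11763012-11763712), 9218 bp before the far end of the gene, was the strongest region inside it, at 94.1 and 91.3 in T1 and 87.3 and 84.5 in T2. Gaps as large towards T1 were found at 12.9% of all shared regions for region 8 and 14.1% for region 15. Of the 6 shared regions inside the gene, 4 had separate groups, and these 4 were higher in T1. Over all shared regions 26.2% ranked higher in T1 and 26.3% in T2. Upstream of the gene the order was the opposite at region 1 (chr11:11656993-11657783), 27.2 kb before the gene, with 73.8 and 78.2 in T1 and 83.6 and 87.8 in T2. A gap as large towards T2 was found at 11.8% of all shared regions. The 2 strongest regions of the whole window lay beyond the gene. Region 19 (chr11:11808644-11809564) overlaps a listed start of Fignl1, an AAA ATPase gene, at 96.3 and 95.9 in T1 and 93.5 and 93.8 in T2. Its gap was matched or exceeded towards T1 at 18.4% of all shared regions. Region 18 (chr11:11788543-11789103), between the genes, ranked at 89.2 and 92.7 in T1 and at 91.0 and 86.9 in T2, with overlap. Over all 12 shared regions the mean rank was lower in T2 at 10 and higher at 2, while the shared regions of the genome split into 22075 lower and 22196 higher.

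Ikzf2, the Helios gene, went the other way in mean rank at most shared regions away from its gene end. The gene is the longest of the family, at 156 kb on chromosome 1 (69531207 to 69687351), and no other protein-coding gene lies in its window. Of its 14 regions 7 were shared (50%), 2 T2-only (14.3%) and 5 in other combinations (35.7%), against 56.8%, 6.88% and 34% of all regions. Among the 7 shared regions the mean rank was higher in T2 at 6 and lower at 1, with a median difference of 8.31 points. The groups were separate in favour of T2 at 3 of them (42.9%) and of T1 at 1 (14.3%), against 26.3% and 26.2% of all shared regions. Gaps as large towards T2 as at these 3, regions 4, 8 and 11, were found at 9.15%, 13.8% and 20.2% of all shared regions. Region 4 (chr1:69513225-69514095), 17.1 kb outside the gene, ranked at 77.3 and 75.8 in T1 and 84.5 and 85.2 in T2. Region 8 (chr1:69606791-69607368), inside the gene, ranked at 60.8 and 54.8 in T1 and 72.7 and 65.1 in T2. Region 11 (chr1:69654966-69655682), also inside, had 49.1 and 37.9 in T1 and 65.7 and 50.8 in T2, where the groups were only 1.69 points apart and replicates differed by 11.2 and 14.9.

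The 1 Ikzf2 region that ranked higher in T1 lay at the gene's upper end, region 13 (chr1:69686801-69688037). Its ranks were 83.6 and 78.5 in T1 and 59.8 and 74.3 in T2, with folds of 11.6 and 11.3 against 7.6 and 9.97. The groups were separate by 4.22 points, less than the 14.4 points between the T2 replicates. A gap as large towards T1 was found at 13.8% of all shared regions. The difference in mean rank, T2 minus T1, was −14.0 points, and it was −6.66 without T2 replicate 1, −7.45 with percentiles in the whole lists and −23.6 with ranks by fold. Region 14 (chr1:69688901-69689272), 863 bp further out, differed by 26.6 points between the T1 replicates (47.8 and 21.2) and stood at 46.4 and 44.4 in T2, so its groups overlapped.

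Both T2-only regions of Ikzf2 lay inside the gene, in the lower part of the T2 lists. Region 6 (chr1:69559671-69560029) reached 16 and 7.98 in −log10 q, with folds of 8.81 and 6.26. Region 9 (chr1:69630501-69630823) had 7.58 and 5.97, at percentiles 13.3 and 9.29 of the T2 lists. Among T2 regions of like strength, 22.1% and 34.7% were T2-only, so peaks as weak as these were often without a T1 partner. Under the minimum of 10 neither stayed T2-only, and region 9 was also lost with every list shortened to the 54045 strongest peaks.

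**Figure D3:**
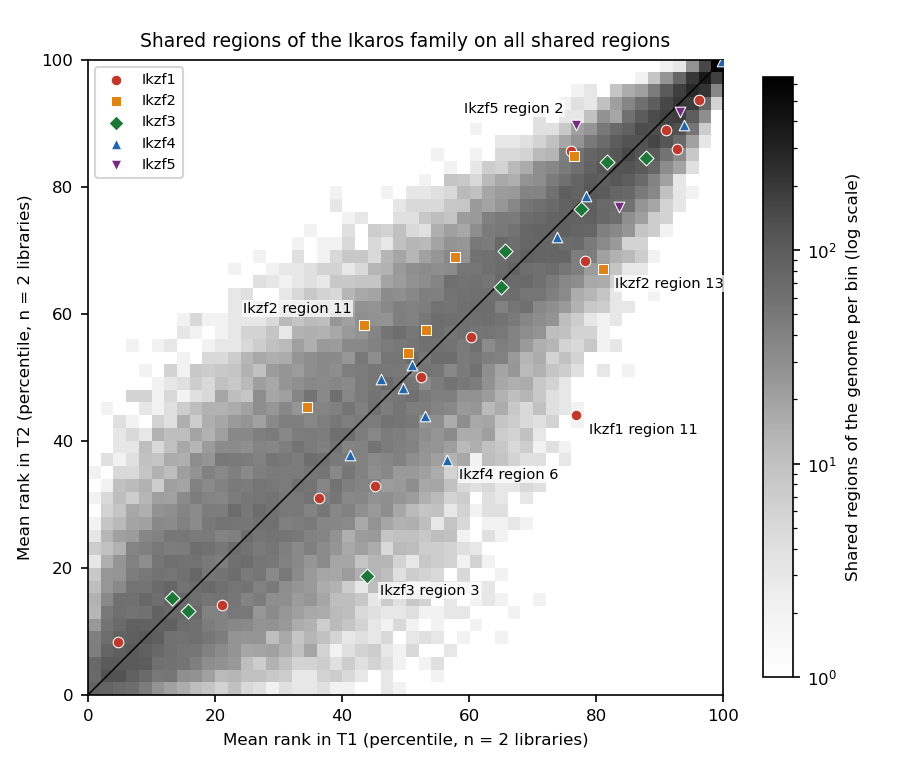
Mean percentile rank in T1 (horizontal) and T2 (vertical, n = 2 libraries each) of the 40 shared family regions, over all 44274 shared regions in grey bins shaded on a log scale. Ikzf1 region 11, at 76.9 and 44.0, lies farthest below the diagonal, while 6 of the 7 Ikzf2 regions lie above it.

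Ikzf3, the Aiolos gene, had little open chromatin inside it. Of the 12 regions of its window on chromosome 11 (gene 98464610 to 98546031), 3 touched the 81.4 kb gene and 1 of these was shared. That region, number 7 (chr11:98545542-98546120), lies at the upper gene end and was among the weak ones, at 18.4 and 13.2 in T1 and 3.98 and 22.3 in T2. The T2 replicates enclosed the T1 values. Region 6 (chr11:98493013-98493408), inside the gene, had a peak in T1 replicate 2 and both T2 libraries (−log10 q of 15.0, 8.55 and 15.9) and not in T1 replicate 1.

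The strongest regions of the Ikzf3 window by mean rank, numbers 8, 2 and 11, belonged by position to its neighbours. Region 8 (chr11:98550841-98551752) overlaps an end of Zpbp2, a zona pellucida binding protein gene, with 88.0 and 87.6 in T1 and 84.7 and 84.2 in T2. A gap as large towards T1 was found at 16.5% of all shared regions, and the separation was lost with percentiles in the whole lists. Region 3 (chr11:98457334-98458876), a weaker one, lies at an end of Mien1, 5.73 kb from Ikzf3. It ranked at 49.4 and 38.6 in T1 and 20.6 and 16.9 in T2. Its gap of 17.9 points was the second in the family, and 2.32% of shared regions had one as large towards T1. Region 2 (chr11:98438426-98439262), at the listed start of Mien1, was the 1 region higher in T2, by 0.948 points between the nearest values. A gap as large towards T2 was found at 22.5% of all shared regions, and the direction at region 2 reversed when regions were ranked by fold. Region 11 (chr11:98586831-98587589), at a listed start of the sphingolipid regulator gene Ormdl3, ranked at 76.9 and 78.3 in T1 and 75.2 and 77.7 in T2, with overlap. There were 0 T2-only and 0 T1-only regions, classes that held 6.88% and 2.33% of all regions.

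Ikzf4, the Eos gene, was open at the same places in both groups. Its window on chromosome 10 (gene 128630839 to 128669671) held 11 regions, of which 10 were shared and 1 had a peak in T1 replicate 1 alone. The shared fraction was 90.9%, against 56.8% of all regions. No region covered either end of the gene. The nearest were region 4 at 3688 bp from the lower end, on an end of the ribosomal protein gene Rps26, and region 8 at 3894 bp from the upper end, on an end of the sulfite oxidase gene Suox. The 3 regions inside the gene were of middling rank. Region 6 (chr10:128645175-128646016), which also overlaps a listed start of the predicted gene Gm26876, ranked at 60.6 and 52.4 in T1 and 36.5 and 37.4 in T2, a gap of 15.0 points that 3.33% of shared regions matched or exceeded towards T1. Region 5 (chr10:128636628-128637453) ranked at 54.3 and 51.8 in T1 and 43.6 and 44.0 in T2. Region 7 (chr10:128663599-128664192) overlapped between groups, at 47.3 and 52.1 in T1 and 56.9 and 39.8 in T2. So 2 of the 3 regions within Ikzf4 were higher in T1, as was region 4 at 92.5 and 95.0 against 89.6 and 89.9. Gaps as large towards T1 were found at 8.44% of all shared regions for region 5 and 17.1% for region 4. In the window 3 of the 10 shared regions were thus higher in T1 (30%) and 0 in T2. Over all shared regions the shares were 26.2% and 26.3%. Region 5 lost its separation with percentiles in the whole lists, at −1.99 points. Without T1 replicate 1 the window had 1 more region higher in T2 than in T1. The strongest region of the family, number 9 (chr10:128695661-128696759), lies on ends of Rab5b and Pmel and stood between 99.8 and 99.9 in all 4 libraries. Region 10 (chr10:128704321-128705525), at a listed start of the cell cycle kinase gene Cdk2, ranked at 80.2 and 76.7 in T1 and 77.9 and 79.3 in T2, with overlap.

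Ikzf5, the Pegasus gene, had 3 regions in its window on chromosome 7 (gene 131388649 to 131410518), fewer than the median gene, and all were shared. All 3 overlapped a listed start, and 90.3% of regions at listed starts were shared across the genome. Region 3 (chr7:131410070-131410905) covers the start printed above and also an end and a listed start of Acadsb, an acyl-CoA dehydrogenase gene. It ranked at 94.9 and 91.3 in T1 and 93.0 and 90.5 in T2, so the groups overlapped, and it was the strongest region on a family member's own end. Relative to the Ikzf5 start, with negative values upstream, summits lay between −153 and −77 bp. The other regions sit at neighbouring genes and differed in opposite directions. Region 2 (chr7:131370816-131372074), at an end of Pstk, a kinase of selenocysteine synthesis, ranked at 76.5 and 77.2 in T1 and 88.1 and 91.3 in T2. Its gap of 10.9 points was the widest towards T2 in the family, and 5.28% of shared regions had one as large. Region 1 (chr7:131362333-131363377), at an end of 2310057M21Rik, ranked at 82.6 and 84.5 in T1 and 75.8 and 77.7 in T2. A gap as large towards T1 was found at 12.5% of all shared regions.

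Gaps of at least 10 percentile points were found at 3 shared family regions towards T1 (7.5%) and 1 towards T2 (2.5%), against 6.26% and 5.98% of all shared regions. Own gene ends carried a shared region at 4 of the 5 genes, and the mean rank was lower in T2 at all 4, with T2 minus T1 at −9.95 points for Ikzf1, −14.0 for Ikzf2, −2.66 for Ikzf3 and −1.37 for Ikzf5. The groups were separate at Ikzf1 and Ikzf2, with the exceptions given above for both, and overlapped at Ikzf3 and Ikzf5. Genome-wide, shared regions at listed gene starts ranked higher in T1 at 29.8% and in T2 at 22.1%, so ranks at listed starts leaned towards T1 across the genome. Away from listed starts the shares were 25% and 27.7%. These shares count regions with separate groups, and only 2 of the 4 own-end regions overlapped a listed start. They are therefore no background for the mean ranks at own gene ends, for which no share over the genome was taken. Regions at listed starts had a peak in all libraries at 90.3%, were T2-only at 1.86% and T1-only at 0.259%, and those away from starts at 50.8%, 7.8% and 2.7%. The 4 T2-only regions were among the 24 regions inside members' genes and away from their ends (16.7%), and the 32 flanking regions held 0. No T2-only share over the genome was taken for regions inside genes or in flanks. Of the 32 flanking regions 10 overlapped a listed start, against 2 of the 24. Family regions were 608.5 bp wide at the median, against 542 bp for all regions, and 18 of the 60 overlapped the body of another protein-coding gene. Of the 16 regions in other combinations, 9 had a peak in 1 library only, as did 14165 of the 26462 such regions of the genome.

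By counts in the presence classes, the members had many equals. Of 201 other genes with 20 regions, 7 had exactly the split of Ikzf1, among them Brf1, Camk2a and Capn11. Of 793 with 14 regions, 20 had that of Ikzf2, among them Bmp1, Cd47 and Coq9. For Ikzf3, Ikzf4 and Ikzf5 the numbers were 81 of 1075, 42 of 1142 and 239 of 992. Likeness was measured by the shares of regions per class over 4 libraries, with ties named in alphabetical order.

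Genes of the Ikaros pathway were read in the same windows. The 18 cofactor genes were those of NuRD, Sin3, CtBP and SWI/SNF subunits and Crbn, the cereblon gene. Human cereblon belongs to a ligase that degrades Ikaros and Aiolos when bound by thalidomide analogues. The cofactor genes had 207 regions, of which 135 were shared. Of the 207, 7 were T2-only (3.38%) and 2 T1-only (0.966%), beside 6.88% and 2.33% of all regions. Crbn, Gatad2a and Gatad2b, the latter pair encoding NuRD subunits, had 1 T2-only and 0 T1-only regions each, and the deacetylase gene Hdac1 had 0 and 1. These are the first 4 in alphabetical order among the genes with a difference of 1. In all, 7 cofactor genes had more T2-only regions, 2 had more T1-only regions and 9 had equal numbers. No share of all genes was taken for these counts. T2-only regions outnumbered T1-only ones across the genome, at 5364 against 1814. Of the cofactors' shared regions 41 ranked higher in T1 (30.4%) and 29 in T2 (21.5%), against 26.2% and 26.3% of all shared regions.

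The 25 lymphoid genes had 315 regions, of which 176 were shared, 16 T2-only (5.08%) and 7 T1-only (2.22%), again beside 6.88% and 2.33%. Cd4, the T cell co-receptor, had 3 T2-only and 1 T1-only regions. Cd79b, a B cell receptor subunit, and Dtx1, a Notch pathway ligase gene, had 2 and 0, and Bcl6, a germinal centre repressor, had 0 and 1. Shared regions ranked higher in T1 at 58 (33.0%) and in T2 at 37 (21.0%), against the same 26.2% and 26.3%. With a gap of at least 10 points the numbers were 21 towards T1 (11.9%) and 7 towards T2 (3.98%), beside the 6.26% and 5.98% of all shared regions. T2-only regions outnumbered T1-only ones at 9 of the lymphoid genes and the reverse held at 4. As with the cofactors, no share of all genes was taken, and T2-only regions were the more frequent across the genome. Windows of some lymphoid genes overlap, so the count by gene can hold a region more than once. Igll1 and Vpreb1, both among the 4, lie on chromosome 16 with the same counts, 10 regions and 1 T1-only region each. Both lists thus held more regions ranking higher in T1 than in T2. The family did so too, in an order that turned with percentiles in the whole lists. At listed starts across the genome the shares were 29.8% higher in T1 and 22.1% in T2. Such starts were overlapped by 52 of the 207 cofactor and 46 of the 315 lymphoid regions, beside 11962 of all 77914. The lists were described and not tested.

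As a check of the sorted population, 7 progenitor markers had a listed start. Peaks covered 6 of these starts in each T1 library and 7 in each T2 library, the one missing in T1 being Mpo, the myeloperoxidase gene. Both B cell starts (Cd79a and Pax5) carried a peak in 3 libraries and lacked one in T1 replicate 1. T and NK cell starts carried peaks at 1 of 4 in every library, erythroid ones at 0 of 3, megakaryocyte ones at 3 of 3, endothelial ones at 2 of 2 and the stromal one at 0 of 1. An open start is not expression, and the part of other cell types in the values above was not tested.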

How the data were processed

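The 4 ATAC-seq peak lists were used as deposited, with the groups taken from the sample titles. Bowtie2, SAMtools and MACS2 and the build mm10 are named in the submitters' processing notes. Peak names show 1 prefix per file, from which peaks were called separately for each library. No version, setting or read filter is given in the sources used here. The deposited fold is the ratio of a peak's summit to local background. The deposited −log10 p and −log10 q give its significance, with none of the q values in the lists below 2 on that scale. The score column, also deposited, follows 10 times the −log10 q and was not used, nor was −log10 p. The deposited summit offset placed the summits. The lists hold no read counts, so depth is unknown and no count model was fitted.

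Only the 21 main chromosomes were used, and peaks sharing 1 bp were joined. A region's value in a library was that of its strongest peak. Strand and start sites came from the RefSeq promoter table and gene ends from the RefSeq gene table. Named in the text are all members, every group-only region and every region on a member's own end or among its 3 highest in mean rank, with list genes taken by the largest difference between T2-only and T1-only regions. Other regions are named because their groups were separate or because they lay at or inside the gene, a choice made after their values were seen, as was the gap of 10 points. The members and lists were chosen with earlier results of these data known. The joining and ranking code was tested on simulated lists. Python 3.11.15, pandas 2.3.3 and scipy 1.17.1 were used. Alternatives were stricter peaks, lists cut to equal length, a cover of at least 0.5 of a region, windows of 250 bp either side of summits, flanks of 10 and 100 kb, ranks by fold, percentiles in whole lists and leaving out each library.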

Additional observations from a re-analysis of the deposited data

How the results depend on the processing

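Of the 18 family regions with separate groups, 14 kept their call in all 7 alternatives that use the 4 libraries, and 122 of 126 calls were kept over these. Leaving out a library can hardly separate less what was separate, so it is not counted here. Region 4 of Ikzf1, region 8 of Ikzf3 and region 5 of Ikzf4 kept their direction with overlapping groups when percentiles in whole lists were used. Region 2 of Ikzf3 reversed, to −1.14 points, when ranked by fold. With other flanks the windows hold fewer or more regions. Flanks of 10 kb left 22 regions shared by all libraries (61.1%, against 56.8% of all regions). Of these, 10 ranked higher in T1 (45.5%) and 2 in T2 (9.09%). The 4 T2-only regions were then 11.1% of the family's, against 6.88% of all regions. Flanks of 100 kb gave 2 T1-only regions (2.17% against 2.33%), with 14 shared regions ranking higher in T1 (24.6%) and 10 in T2 (17.5%). Over all shared regions 26.2% ranked higher in T1 and 26.3% in T2 with either flank. A minimum of 10 in −log10 q left 2 T2-only regions, or 4% against 8.08% of all regions. Percentiles in whole lists gave 11 regions higher in T2 and 9 higher in T1. That setting moves with list length, and 40.6% of all shared regions were then higher in T2 and 14.2% in T1. In it the balance of Ikzf3 reversed to 2 more regions higher in T2 than in T1. The balance also reversed at Ikzf3 without T1 replicate 2, to 1, with −5 without T1 replicate 1, and at Ikzf4 without T1 replicate 1, to 1, with −6 without T1 replicate 2. Leaving out each library in turn gave 6 to 7 T2-only regions, 0 to 2 T1-only regions and 40 to 42 shared regions. T2-only regions were then 10.2% to 12.1% of the family's, against 9.67% to 15.7% of all regions. T1-only ones were 0% to 3.45%, against 3.44% to 6.14%. Shared ones were 70.2% to 72.4%, against 61.5% to 63.7%. Of the shared family regions 11 to 14 ranked higher in T2 and 17 to 21 in T1. In those settings 38.0% to 38.5% of all shared regions were higher in T2 and 37.1% to 38.1% in T1. The excess of regions with a peak in T2, 6 on average, ranged from 2.5 at equal list length, where the groups overlapped, to 7.5. With the replicate number as a block, an alternative chosen after seeing the data, the excess was 6 and the exact sign-flip permutation test over 2 pairs gave p = 0.5, the smallest it allows. The labels tie the numbers to no shared animal, batch or day. Depth is unknown and limits what the lack of a peak shows.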

Other observations

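One Ikzf1 region stood out among those with a peak in a single library. Region 16 (chr11:11766208-11766427), inside the gene, had a peak in T2 replicate 2 alone, 220 bp wide, with −log10 q of 37.8 and a fold of 7.6. It stood at the 68.1 percentile of that list. The other 8 single-library regions of the family had −log10 q between 2.08 and 6.87. It was named after its values were seen.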
